A study of Saccharomyces cerevisiae with 15 samples.

Results

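Cells of a xylose-utilising Saccharomyces cerevisiae strain taken after 72 h on xylose (Xyl72h) were compared with glucose repressed cells of the same strain taken after 5 h on glucose (Glc5h), across all genes of the Affymetrix Yeast Genome S98 array. The 10 arrays whose titles give these 2 conditions were used, of 15 in the series. They stand for 6 cultures of 9, with 3 cultures a group, numbered 0, 1 and 2. The sample of fermentation 2 was hybridised 3 times in each group, and those arrays were averaged on the log2 scale. The other 5 arrays, of glucose cells at 24 h, entered the estimate of the spread, the common target of the scaling and the choice of probe sets tested. They did not enter the differences themselves.

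Both groups were strain VTT-C-99318, a haploid derivative of CEN.PK2-1D of mating type alpha. It carries XYL1 of Pichia stipitis, for xylose reductase, under the PGK1 promoter and XYL2, for xylitol dehydrogenase, under a modified ADH1 promoter, both integrated at URA3, together with an additional copy of the endogenous xylulokinase gene XKS1 under a modified ADH1 promoter at HIS3. The parent strain has mutations in leu2, ura3, trp1 and his3. Cells grew aerobically in separate bioreactors in synthetic complete medium with 50 g/l of xylose (Xyl72h) or of glucose (Glc5h), and both sugars were still present at sampling. The harvest field of the xylose labels gives other times than 72 h, and the time in the titles and source names was used. Sugar, time in culture and growth rate all differ between the groups and cannot be told apart here.

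Yeast cells given abundant glucose grow fast, build ribosomes, membranes and secretory capacity at a high rate, and keep genes for other carbon sources, respiration and stress protection repressed. When growth slows or the sugar is a poor one, the programme for protein synthesis is generally turned down and that for respiration, reserves and stress tolerance is turned up. Outside central carbon metabolism the synthesis of amino acids, nucleotides and lipids, the remodelling of the cell wall and the cell cycle are linked to that balance.

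The unit is a signal intensity for a set of probes, scaled so that the upper quartile of each array is the same, with signals under 16 set to 16. Values given in threes are those of fermentations 0, 1 and 2. A log2 difference is Xyl72h minus Glc5h, and "called" means an adjusted p under 0.05 in limma, with Benjamini-Hochberg adjustment over all 5877 probe sets tested. Of these 1508 were called (25.7%), with 686 higher (11.7%) and 822 lower (14%) in Xyl72h, and the median difference over all of them was -0.02. By gene, 4681 were tested, 544 were higher and 764 lower (27.9% called), and the median was -0.07. The share called in a gene list is to be read against these 27.9%. Among called probe sets 163 were over 4-fold higher and 66 over 4-fold lower, although more were lower than higher. For 185 of them every culture of the dimmer group lay at the floor of 16, so the fold is a lower bound, and the spread of that group is then 0 by construction, which can make p too small. Where only some cultures of the dimmer group lay at the floor, the difference is likewise a minimum, and its size and rank depend on the floor.

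Properties of the arrays touch many of these results. The arrays of fermentation 0 had the highest upper signals in both groups, with a 99th percentile of the scaled signal of 1080.6 in Xyl72h and 1622.6 in Glc5h, against 643.3 to 844.2 in the other arrays of Xyl72h and 807.4 to 878.4 in those of Glc5h. Relative levels also depend on the scaling. Scaled on 4 reference genes (ALG9, TAF10, TFC1 and UBC6) in place of the upper quartile, 1153 probe sets were higher and 331 lower, so 77.7% of the calls were higher, against 45.5% as reported, and a probe set moved by 0.49 at the median, while the median of all probe sets moved by 0.18. The SD between cultures was 0.347 in Xyl72h and 0.472 in Glc5h on the log2 scale, and that between hybridisations of 1 sample was 0.165 in both. The ratio of 3′ to 5′ actin signal, a sign of RNA quality, was 1.88 to 2.77 in Xyl72h and 1.86 to 2.29 in Glc5h. It was 10.28 on 1 array of the 24 h glucose cells, and without that group in the fit 1195 probe sets were called (589 higher, 606 lower). The cells matched their mating type: the alpha-specific transcripts of SAG1, MF(ALPHA)1 and STE3 were detected in every culture, while STE2, MFA1, AGA2 and BAR1 of a cells lay at the floor in 9 of 9 cultures. XKS1 had signals of 248, 263 and 219 in Xyl72h and 104, 141 and 87.2 in Glc5h, a difference of 1.16 ± 0.22 (SE, limma adjusted p = 0.00914).

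**Figure D1:**
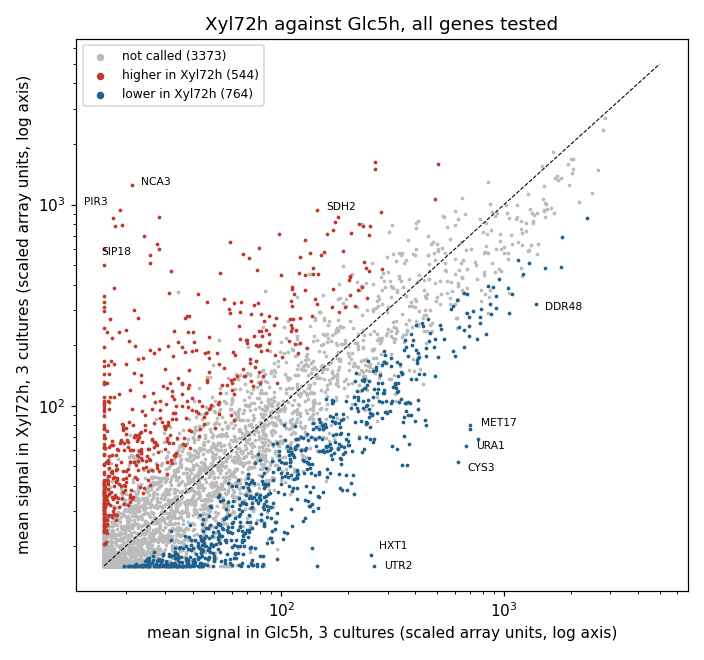
Mean signal of each of the 4681 genes tested in Xyl72h (vertical, log axis) and Glc5h (horizontal, log axis), over 3 cultures each; the dashed line marks equal signals. The 544 genes higher in Xyl72h reach farther from the line than the 764 lower ones, and both kinds pile up at the floor of 16.

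NCA3 (YJL116C), of the SUN family of cell wall proteins, had signals of 1506, 1019 and 1224 in Xyl72h and 16.0, 19.4 and 28.6 in Glc5h, a difference of 5.90 ± 0.52 (SE, limma adjusted p = 0.000475), with 1 Glc5h culture at the floor. PIR3 (YKL163W), a cross-linked cell wall protein, had 1297, 718 and 810 in Xyl72h and 16.0, 16.0 and 24.8 in Glc5h, at least 49.2-fold higher, with 2 Glc5h cultures at the floor. No Xyl72h culture of either gene came near a Glc5h culture. HXT5, a hexose transporter of slow-growing cells, MAL11, a maltose and general alpha-glucoside transporter, GRE1 and SPG4, which are known from stressed and stationary cells, HSP30 of the plasma membrane, ATO2, of a family of ammonium and acetate transporters, AGX1 for glycine synthesis from glyoxylate and TMA10, a ribosome-associated protein, also were among the 12 largest differences of genes with a culture above the floor in each group, at 4.37 to 5.90, together with YHR033W and EGO4. The bounds of other genes reach into that range. With every Glc5h culture at the floor, the largest bounds were those of DAK2, SIP18, SHH3, MAL31 and ISF1. The probe set of MAL31 is marked as shared or incomplete, as is that of VEL1, and the MAL genes are near-identical copies whose signals cannot be separated with certainty. SIP18, a hydrophilin, had 504, 399 and 591 in Xyl72h and 16.0 in each Glc5h culture, at least 30.7-fold higher.

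UTR2, a chitin transglycosylase of the cell wall, had 16.0, 16.0 and 16.1 in Xyl72h, at or just above the floor, and 239, 193 and 347 in Glc5h, at least 15.7-fold lower. YOR387C had 16.0, 109 and 79.9 in Xyl72h and 1082, 713 and 486 in Glc5h (-3.80), and its Xyl72h cultures differed widely, with culture 0 at the floor. With UTR2 and YOR387C, the 12 largest falls of genes with a culture above the floor in each group were those of the low-affinity hexose transporter gene HXT1, CYS3, URA1, MET17, MET14, SAM2 and URA4 of the sulphur and pyrimidine pathways, the dicarboxylate carrier gene DIC1, and CPP2 and YLR179C. With every Xyl72h culture at the floor, the largest bounds were those of VEL1, SPE3 for spermidine synthesis, ARI1, PGM1 and SAM4. SPE3 had 16.0 in each Xyl72h culture and 100, 63.0 and 82.2 in Glc5h, at least 5.03-fold lower.

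**Figure D2:**
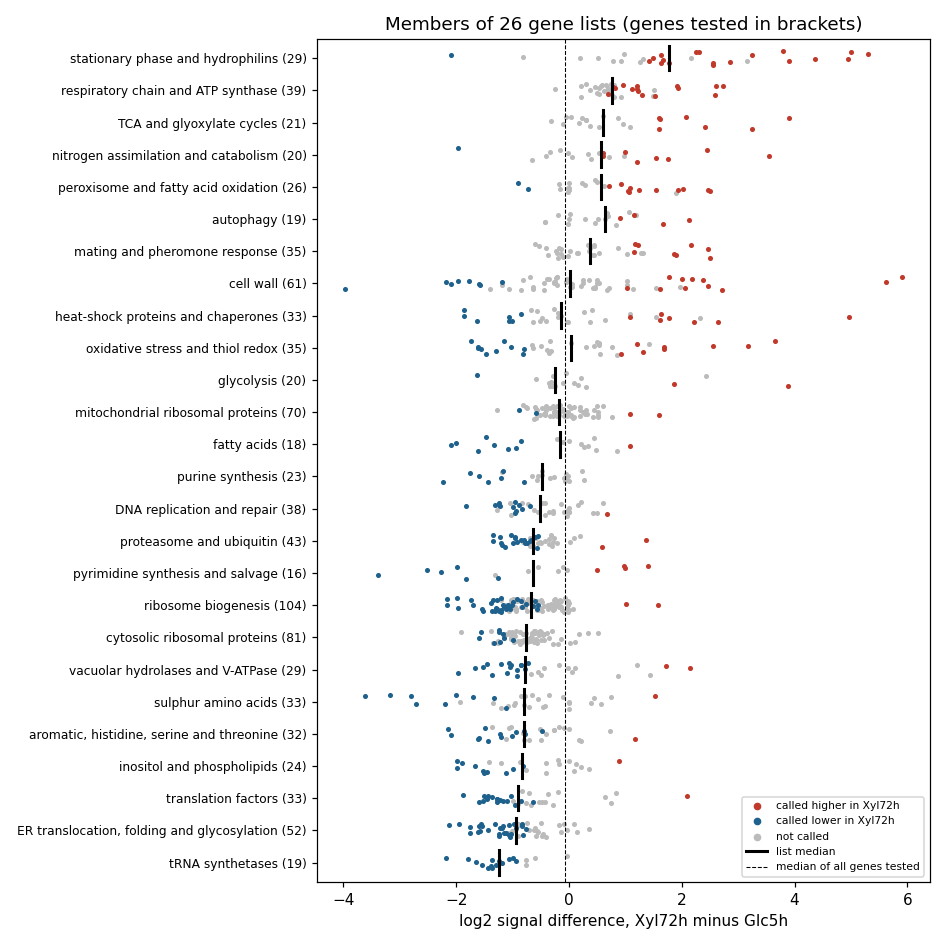
Log2 difference (Xyl72h minus Glc5h) of each tested member of 26 gene lists, with the list median (black bar) and the median of all genes tested (dashed line); colours give the limma call at an adjusted p under 0.05. Called members of the stationary phase list lie to the right, with 1 exception, and those of the tRNA synthetases, translation factors and ER lists lie to the left, with 1 exception among the translation factors.

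Genes of sulphur amino acid synthesis and of the methyl cycle were among those lower in Xyl72h. Of 33 genes tested 9 fell, 1 rose and 23 were not called, with a median of -0.80 (9 to 13 lower when each culture was left out in turn). The share called, 30.3%, was near the 27.9% of all genes. CYS3, cystathionine gamma-lyase, had 62.1, 60 and 34.9 in Xyl72h and 649, 559 and 659 in Glc5h, a difference of -3.61 (adjusted p = 0.00588). MET17, which fixes sulphide into homocysteine, had 78.5, 73.9 and 77.6 in Xyl72h and 762, 852 and 503 in Glc5h (-3.17). Both genes were below every Glc5h culture by a wide margin. MET14, adenylylsulphate kinase, fell by 2.80, and the S-adenosylmethionine synthetase genes SAM2 and SAM1 fell by 2.71 and 2.20. SAH1 and CYS4, which carry the sulphur on to cysteine after methyl transfer, fell by 1.71 and 1.33. The exception was MET30, whose F-box protein restrains the activator Met4, with 112, 79.4 and 83.4 in Xyl72h and 21.0, 38.1 and 38.7 in Glc5h (1.53), and its call was lost without Glc5h culture 0, Xyl72h culture 0 or Xyl72h culture 2. HOM6 of the shared aspartate branch had 518, 495 and 385 in Xyl72h and 1492, 798 and 602 in Glc5h and was not called (adjusted p = 0.0976).

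Pyrimidine genes had calls in both directions. Of 16 tested 6 were lower and 4 higher, with a median of -0.64. URA1, dihydroorotate dehydrogenase, had 55.7, 81.3 and 52.2 in Xyl72h and 947, 533 and 543 in Glc5h (-3.39 ± 0.35, SE, limma adjusted p = 0.000876), and URA4, dihydroorotase, had 70.0, 66.1 and 57.4 in Xyl72h and 492, 315 and 318 in Glc5h (-2.51). The nucleotide salvage gene FUR1, the dUTPase gene DUT1, URA5 and URA7 fell by 1.82, 2.27, 1.26 and 1.98. The second genes for the last pair of enzymes moved the other way: URA10, the minor orotate phosphoribosyltransferase, had 42.1, 50.5 and 45.3 in Xyl72h and 17.6, 18.6 and 16.0 in Glc5h (1.40), and URA8, the second CTP synthase, was higher by 0.98. FUR4, the uracil permease, was higher by 1.00, and YNK1, a nucleoside diphosphate kinase, by 0.50. URA2, which encodes the first step and is the regulated one, was not called (-0.19, adjusted p = 0.47). Without Glc5h culture 1, Xyl72h culture 1 or Xyl72h culture 2, 2 pyrimidine genes were called higher.

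Purine synthesis genes had calls in 1 direction. Of 23 genes 7 were lower and none higher, with a median of -0.48 that was 0.00 with the reference gene scaling, and 4 were lower without Xyl72h culture 0. The share called was 30.4%, against 27.9% of all genes. No ADE gene of the list was called. IMD4, for a step towards GMP, had 27.2, 32.9 and 20.4 in Xyl72h and 150, 125 and 99.6 in Glc5h (-2.23, adjusted p = 0.000569), and GUA1, the next step, fell by 1.20. The related genes IMD3 (-0.07) and IMD2 (-0.48), whose probe sets are marked as shared or incomplete, were not called. ADO1, adenosine kinase, fell by 1.76. The folate and one-carbon list held both directions among 14 genes, with 2 higher and 4 lower. GCV2, a subunit of glycine decarboxylase, had 105, 154 and 89.5 in Xyl72h and 20.9, 35.2 and 23.2 in Glc5h (2.14), and the threonine aldolase gene GLY1 was higher by 1.10, while MIS1, the mitochondrial C1-tetrahydrofolate synthase, fell by 1.87. Leaving out each culture but Glc5h culture 2 and Xyl72h culture 2 took the lower calls to 1 or 2, and leaving out Glc5h culture 0 took the higher calls to 0, and any Xyl72h culture took them to 1. With the reference gene scaling 4 were higher and 1 lower.

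Amino acid pathways did not move as a block. Of 32 genes for aromatic amino acids, histidine, serine, threonine, asparagine and proline 13 fell and 1 rose, with a median of -0.80 (10 to 17 lower with a culture left out, and 4 with the reference gene scaling). ARO7, chorismate mutase, had 16.0, 16.4 and 16.0 in Xyl72h and 99.1, 65.7 and 55.4 in Glc5h, at least 4.41-fold lower, and SER2, phosphoserine phosphatase, fell by 2.10. PRO3 and ASN2 fell by 1.59 and 1.61. ARO1, the pentafunctional enzyme of the shikimate pathway, went the other way, at 1.17, but its call was lost without any 1 of 5 of the cultures. The branched-chain list had a positive median (0.58 over 13 genes) and 1 call (7.69%, against 27.9% of all genes). LEU2 had 926, 587 and 729 in Xyl72h and 149, 258 and 103 in Glc5h (2.22, adjusted p = 0.0157), in a strain that is mutated at leu2. Branched-chain genes called higher numbered 0 without Glc5h culture 0, Xyl72h culture 0 or Xyl72h culture 2, 5 without Glc5h culture 1 and 2 without Glc5h culture 2. BAP2, a permease for leucine and its relatives, had 549, 406 and 462 in Xyl72h and 40.4, 125 and 67.3 in Glc5h (2.75, adjusted p = 0.00829), BAP3 was higher by 1.22 and PUT4, the proline permease, by 2.62. These 3 were the called genes among 23 permeases (13%, against 27.9% of all genes), and 1 was called without Glc5h culture 2, Xyl72h culture 1 or Xyl72h culture 2. Among genes for arginine and lysine 3 were higher and 3 lower of 18, with 1 higher without Glc5h culture 0 or Xyl72h culture 2 and 5 lower without Glc5h culture 0 or Glc5h culture 2, and 4 higher and 1 lower with the reference gene scaling. CPA1, a subunit of carbamoyl phosphate synthetase, was the largest, with 907, 578 and 662 in Xyl72h and 90.0, 214 and 178 in Glc5h (2.22). GCN4, which encodes the activator of amino acid synthesis, had 1079, 740 and 827 in Xyl72h and 419, 584 and 590 in Glc5h and was not called (adjusted p = 0.117).

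Genes for nitrogen assimilation and catabolism, taken as 1 list, were higher in Xyl72h in 8 of 20 cases, with 1 lower and a median of 0.57 (5 higher without Xyl72h culture 1 or without Xyl72h culture 2). GDH3, the second NADP-dependent glutamate dehydrogenase, had 331, 142 and 245 in Xyl72h and 16.0, 16.6 and 27.8 in Glc5h (3.54, adjusted p = 0.00141), while its partner GDH1 was not called (-0.34, adjusted p = 0.404). PUT1, proline oxidase, had 90.8, 102 and 72.5 in Xyl72h and 16.0 in each Glc5h culture, at least 5.47-fold higher. The degradative GDH2, the ammonium permease gene MEP1 and the glutamate synthase gene GLT1 were higher by 1.76, 1.54 and 1.20. ASP1, the cytosolic asparaginase, had 91.7, 76.3 and 96.0 in Xyl72h and 451, 244 and 368 in Glc5h (-1.97).

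Iron and copper genes and phosphate genes were called about as often as all genes, 27.6% and 30% against 27.9%. Of 29 iron and copper genes 4 were higher and 4 lower. CRS5, a copper metallothionein, had 319, 262 and 401 in Xyl72h and 24.8, 31.6 and 83.0 in Glc5h (8.02-fold higher), and ISU1 and ISU2, the scaffolds of iron-sulphur cluster assembly, were higher by 1.20 and 1.23. SMF1, a metal transporter gene, was higher by 1.26, and the uptake genes FTR1 and ARN1 were not called (-0.51 and 1.01). Other uptake genes, FET3, SIT1, ENB1 and FET4, fell by 1.28, 2.11, 2.01 and 2.00. Leaving out Glc5h culture 1 or any Xyl72h culture took these lower calls to 2, and with the reference gene scaling 6 genes were higher and 1 lower. The siderophore wall protein genes FIT2 and FIT3 were not called. FIT3 had 655, 155 and 239 in Xyl72h and 102, 707 and 282 in Glc5h, with groups that overlap. PHO84, the high-affinity phosphate transporter gene, had 175, 100 and 111 in Xyl72h and 16.0, 16.0 and 17.2 in Glc5h (2.93, adjusted p = 0.00312), and the acid phosphatase gene PHO5 was higher by 1.42. PHO3, a thiamine-repressed phosphatase, had 25.5, 73.8 and 53.7 in Xyl72h and 183, 219 and 157 in Glc5h (-1.99). It was 1 of 2 phosphate genes called lower, and that count was 1 without Glc5h culture 1, Xyl72h culture 0 or Xyl72h culture 2 and 4 without Glc5h culture 2 or with the replicate block. IZH4, of a family linked to zinc and lipid metabolism, had 216, 39.2 and 137 in Xyl72h and 16.0 in each Glc5h culture, at least 6.57-fold higher.

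**Figure D3:**
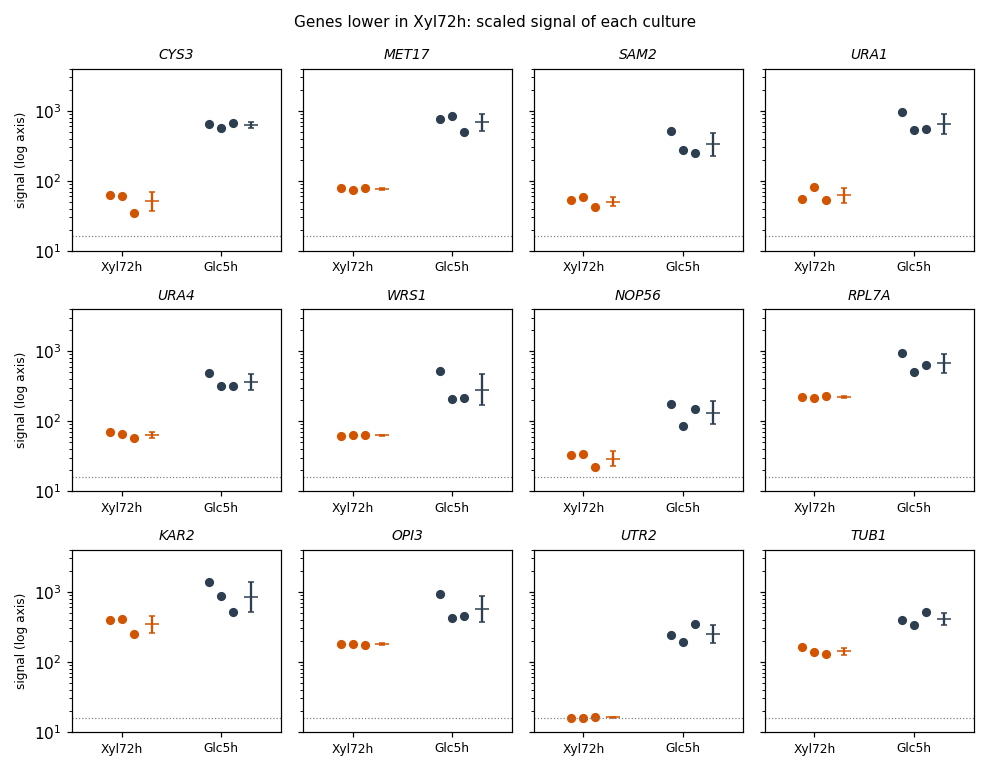
Scaled signal (log axis) of each of the 3 cultures of Xyl72h (left) and Glc5h (right) for 12 genes that were lower in Xyl72h, with the mean and SD on the log2 scale beside the points; the dotted line is the floor of 16. For each of the 12 the Xyl72h cultures lie below all Glc5h cultures.

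The charging of tRNA was the list with the largest share called, 73.7%: 14 of 19 genes of the aminoacyl-tRNA synthetase list fell, none rose, and the median was -1.25 (9 without Glc5h culture 0, Xyl72h culture 0 or Xyl72h culture 2, up to 15 with a culture left out, 8 with the reference gene scaling, median -0.78). Among the 14 was ARC1 (-1.54), a cofactor of synthetases that is not itself one. WRS1, for tryptophan, had 61.4, 63.1 and 63.6 in Xyl72h and 518, 207 and 213 in Glc5h (-2.18, adjusted p = 0.00353), and TYS1 and THS1, for tyrosine and threonine, fell by 1.80 and 1.65. Of 33 translation factor genes 17 fell (10 without Xyl72h culture 2, 11 without Xyl72h culture 0, and 6 with the reference gene scaling). TEF4, a subunit of elongation factor 1B, had 69.5, 67.9 and 45.2 in Xyl72h and 326, 241 and 134 in Glc5h (-1.88), and CDC33, the cap-binding factor eIF4E, fell by 1.53. HEF3, the second gene for elongation factor 3, was the exception, with 61.9, 65.9 and 79.5 in Xyl72h and 16.0 in each Glc5h culture, at least 4.29-fold higher. The first gene, YEF3, was not called (-0.53, adjusted p = 0.261).

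Ribosome assembly was the longest list with many calls. Its median signals were 17.5, 18.8 and 16.0 in Xyl72h, near the floor, so many of its differences are minima. Of 104 biogenesis genes 35 fell and 2 rose, with a median of -0.68. The count was 15 without Xyl72h culture 2, 16 without Xyl72h culture 0, 19 without Xyl72h culture 1, 22 or 23 without Glc5h culture 1 or 0, and 54 without Glc5h culture 2, and 13 with the reference gene scaling. NOP56, a core protein of the box C/D particles that methylate rRNA, had 32.8, 34.4 and 22.2 in Xyl72h and 175, 86.2 and 152 in Glc5h (-2.17, adjusted p = 0.00208). EBP2, for assembly of the large subunit, had 17.8, 19.6 and 16.0 in Xyl72h and 113, 68.3 and 65.9 in Glc5h (-2.17), and MRT4 and NOP13 fell by 1.99 and 1.96. ESF1 and BUD23, which also act in ribosome assembly, were higher, by 1.57 and 1.01, and at most 1 gene of the list was called higher with a culture left out. Subunits of RNA polymerases I and III fell in 11 of 32 genes, with 3 to 5 without Xyl72h culture 2, Xyl72h culture 0 or Glc5h culture 1, 7 without Glc5h culture 0 or Xyl72h culture 1, and 4 with the reference gene scaling. RPC19, which both enzymes share, fell by 1.67, and RPA49 of polymerase I fell by 1.61.

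For the ribosomal proteins themselves the list held 138 genes of the cytosolic ribosome, and the 81 named on the array were tested. The median was -0.76, and 9 were called, all of them lower. That is 11.1% of those tested, against 27.9% of all genes called in either direction. Of all 4681 genes tested 764 were called lower. The median signals of the list were 425, 369 and 347 in Xyl72h and 1285, 582 and 481 in Glc5h. Glc5h culture 0 lay far above the other Glc5h cultures, as it did in its upper signals. Without it 9 genes were called lower, as many as with it. The part of that spread in the size of the differences was not tested. RPL7A had 220, 217 and 232 in Xyl72h and 942, 507 and 635 in Glc5h (-1.59, adjusted p = 0.00472), and RPS22A had 874, 862 and 838 in Xyl72h and 3889, 1530 and 1670 in Glc5h (-1.33). With the fermentation number as a replicate block 22 were lower, without Glc5h culture 2 there were 36, and 5 without Glc5h culture 1. Without Xyl72h culture 1 there were 2, without Xyl72h culture 0 or 2 there was 1, as there was 1 with the reference gene scaling. Many of these genes have near-identical copies, which probes on this array cannot always separate. Genes for proteins of the mitochondrial ribosome had few calls: of 70 2 were higher and 2 lower (5.71%). The higher count was 1 without any culture but Glc5h culture 0, and the lower count was 1 without Glc5h culture 0, Xyl72h culture 0 or Xyl72h culture 1 and 0 without Xyl72h culture 2. With the reference gene scaling 8 were higher and none lower, with a median of 0.28, against -0.17 as reported. KGD4, 1 of the 2 higher, with 231, 178 and 227 in Xyl72h and 73.4, 79.3 and 58.3 in Glc5h (1.59), was once taken for a ribosomal protein and belongs to the ketoglutarate dehydrogenase complex.

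Genes of the endoplasmic reticulum, through which secreted and cell surface proteins pass, were lower in Xyl72h in 28 of 52 cases, with none higher and a median of -0.94 (20 to 34 lower with a culture left out, 10 with the reference gene scaling). They covered each step. Among translocation genes SEC66 fell by 1.95 and SSS1, a subunit of the pore, by 1.56. Among chaperones SCJ1 had 46.6, 31.5 and 19.5 in Xyl72h and 177, 132 and 102 in Glc5h (-2.13, adjusted p = 0.00603), and KAR2, the main Hsp70 of the compartment, had 400, 402 and 248 in Xyl72h and 1366, 881 and 510 in Glc5h (-1.32). SEC53 and PMI40, which make the mannose donors, fell by 1.76 and 1.58, and PMT4, a protein O-mannosyltransferase, had 57.9, 78.3 and 64 in Xyl72h and 206, 205 and 187 in Glc5h (-1.59). The groups did not overlap for any of these genes. PDI1, disulphide isomerase, missed the threshold (-0.60, adjusted p = 0.0606).

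Membrane lipid genes split by pathway. Of 24 genes for phospholipids and inositol 10 fell and 1 rose (5 lower without Xyl72h culture 0, 6 without Glc5h culture 0, Glc5h culture 1 or Xyl72h culture 2). OPI3, which makes phosphatidylcholine by methylation with S-adenosylmethionine, had 181, 180 and 172 in Xyl72h and 922, 428 and 456 in Glc5h (-1.67, adjusted p = 0.00564), and CPT1 and CHO1 fell by 1.99 and 1.90. Of 18 fatty acid genes 8 fell, those of elongation among them: ELO2 by 2.00, IFA38 by 2.10 and ELO3 by 1.62 (5 without Xyl72h culture 2). ACC1, the enzyme that commits acetyl-CoA to fatty acids, rose, with 1380, 779 and 1026 in Xyl72h and 550, 430 and 490 in Glc5h (1.08, adjusted p = 0.0202), and its call was lost without Glc5h culture 1, Xyl72h culture 0 or Xyl72h culture 2. Ergosterol genes had 6 lower of 29, ERG26 the largest at -1.78, and 1 higher, HMG2 (24.1% called, against 27.9% of all genes). With the reference gene scaling 3 were higher and 1 lower, with a median of 0.28, against -0.20 as reported. The count of higher genes was 0 without Glc5h culture 0, Glc5h culture 1, Xyl72h culture 0 or Xyl72h culture 2. The 6 became 2 without Glc5h culture 0 or Xyl72h culture 2, and 3 without either other Xyl72h culture. Sphingolipid genes had 5 higher and 4 lower of 22, and the higher count was 0 to 3 with a culture left out, 0 without Glc5h culture 0 or Xyl72h culture 0, where the lower count was 3 and 2. ELO2 and ELO3, counted above with the fatty acid genes, are among these 4 lower genes too.

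Peroxisomal and fatty acid oxidation genes were higher in 11 of 26 cases, with 2 lower and a median of 0.56, but 3 to 10 were higher with a culture left out (3 without Glc5h culture 0, 5 without Glc5h culture 1, Xyl72h culture 0 or Xyl72h culture 2, and 7 without Glc5h culture 2). The lower count was 0 without Glc5h culture 0, Glc5h culture 1 or Xyl72h culture 2, 1 without Glc5h culture 2 or Xyl72h culture 0, and 0 with the reference gene scaling. CRC1 and YAT1, which move acyl groups with carnitine, were higher by 2.50 and 2.46. YAT1 had 577, 92.0 and 153 in Xyl72h and 45.1, 30.6 and 35.4 in Glc5h, with Xyl72h culture 0 far above the others. SPS19, for unsaturated fatty acids, had 103, 151 and 158 in Xyl72h and 32.1, 25.0 and 46.1 in Glc5h (2.02), and FOX2, the multifunctional enzyme of beta-oxidation, was higher by 1.94.

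The stationary phase and hydrophilin genes had the highest median of the lists, 1.78, and 18 of 29 rose (13 to 19 with a culture left out). The list was chosen with earlier results of these arrays known, so its direction is no independent evidence. GRE1, a hydrophilin, had 1137, 454 and 782 in Xyl72h and 16.0, 16.0 and 25.9 in Glc5h (5.30, adjusted p = 0.000389), and SPG4 had 759, 582 and 764 in Xyl72h and 16.0, 16.0 and 40.4 in Glc5h (5.00). FMP16 had 606, 376 and 418 in Xyl72h and 18.7, 40.2 and 36.9 in Glc5h (3.91). DDR48, a stress gene, went the other way, with 323, 330 and 310 in Xyl72h and 1819, 1258 and 1109 in Glc5h (-2.09, adjusted p = 0.0127), and no gene of the list was called lower without Glc5h culture 0 or with the reference gene scaling. DDR2, regulated by stress as well, had 2387, 1026 and 1483 in Xyl72h and 120, 154 and 513 in Glc5h (2.86).

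Chaperone genes divided between 7 higher and 7 lower of 33. HSP30 had 1145, 428 and 1019 in Xyl72h and 22.7, 16.0 and 45.9 in Glc5h (4.96, adjusted p = 0.000987), SSE2 was higher by 2.64, HSP26 by 2.22 and the Hsp90 co-chaperone gene AHA1 by 1.78. SSA2 had 640, 400 and 426 in Xyl72h and 2552, 1287 and 1576 in Glc5h (-1.86), and ZUO1 and SSZ1, which work on the ribosome, fell by 1.87 and 1.64. The stress-induced SSA3 had 427, 67.3 and 143 in Xyl72h and 16.3, 16.0 and 125 in Glc5h and was not called (adjusted p = 0.136), nor was the Hsp90 gene HSP82 (-0.03). SSA1, another Hsp70 gene of the cytosol, was not called (-0.14, adjusted p = 0.918). The redox list was likewise divided, with 8 higher and 10 lower of 35. GPX1, a glutathione peroxidase, had 254, 206 and 236 in Xyl72h and 16.0, 16.0 and 24.2 in Glc5h (3.65, adjusted p = 4.95e-05), the catalase gene CTT1 was higher by 2.56 and OYE3 by 3.18. TRX1, TRR1 and GLR1, of the cytosolic thioredoxin and glutathione cycles, fell by 1.73, 1.47 and 1.03, and the mitochondrial TRX3 and TRR2 were higher by 1.21 and 1.31. TRX1 had 185, 209 and 252 in Xyl72h and 1173, 534 and 565 in Glc5h. Without Xyl72h culture 2 the redox counts were 5 higher and 6 lower, and 5 were higher without Glc5h culture 1. With the reference gene scaling 9 were higher and 6 lower.

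Of 61 cell wall genes 11 rose and 8 fell (31.1% called, against 27.9% of all genes), with a median of 0.02. With the reference gene scaling 16 were higher and 3 lower, with a median of 0.45. In the cell wall integrity pathway the kinase Slt2 activates the factor Rlm1. SLT2 had 104, 109 and 92.0 in Xyl72h and 28.1, 23.2 and 39.4 in Glc5h (1.78 ± 0.19, SE, limma adjusted p = 0.000987), and RLM1 was higher by 2.01. PST1, GSC2, the stress-inducible glucan synthase gene, and YPS3, a wall protease, followed at 2.37, 2.18 and 2.72. PST1 had 822, 571 and 595 in Xyl72h and 126, 153 and 104 in Glc5h. MID2, a sensor of the pathway, was higher by 1.02 while WSC4, of the Wsc family of wall sensors, was lower by 1.59. SUN4, DSE2 and CHS2, which act in the septum between mother and daughter, fell by 1.96, 1.58 and 1.18, and GAS3, of a glucan-remodelling family, fell by 2.09. SUN4 belongs to the same family as NCA3 and had 38.9, 24.6 and 37.7 in Xyl72h and 101, 161 and 131 in Glc5h. The sensor genes SLG1 and WSC2 of the same pathway were not called (0.47 and 0.49), nor were the wall protein genes HSP150, PIR1, CWP1 and CCW12 (1.54, 1.02, -1.40 and -0.27). Lower calls were 5 without Xyl72h culture 2.

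Mating genes were higher in 8 of 35 cases and lower in none, with a median of 0.38 (3 without Glc5h culture 1, 4 without Glc5h culture 0 or Xyl72h culture 1, 5 without Xyl72h culture 2, and 6 otherwise). The share called, 22.9%, was below the 27.9% of all genes. AGA1, the anchor of the agglutinin, had 257, 398 and 254 in Xyl72h and 34.7, 49.1 and 90.5 in Glc5h (2.47, adjusted p = 0.0288). PRM1, for fusion of mating cells, had 87.2, 119 and 82.7 in Xyl72h and 16.0, 16.0 and 18.8 in Glc5h (2.50, adjusted p = 0.00697), and PRM4, AFR1 and PRM5 were higher by 2.16, 1.89 and 1.86. The kinase gene FUS3 was higher by 1.17. SAG1, the alpha agglutinin, had 788, 903 and 670 in Xyl72h and 329, 286 and 329 in Glc5h and was not called (1.31, adjusted p = 0.0959), although the groups did not overlap, and the pheromone gene MF(ALPHA)1 was not called (-0.10).

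**Figure D4:**
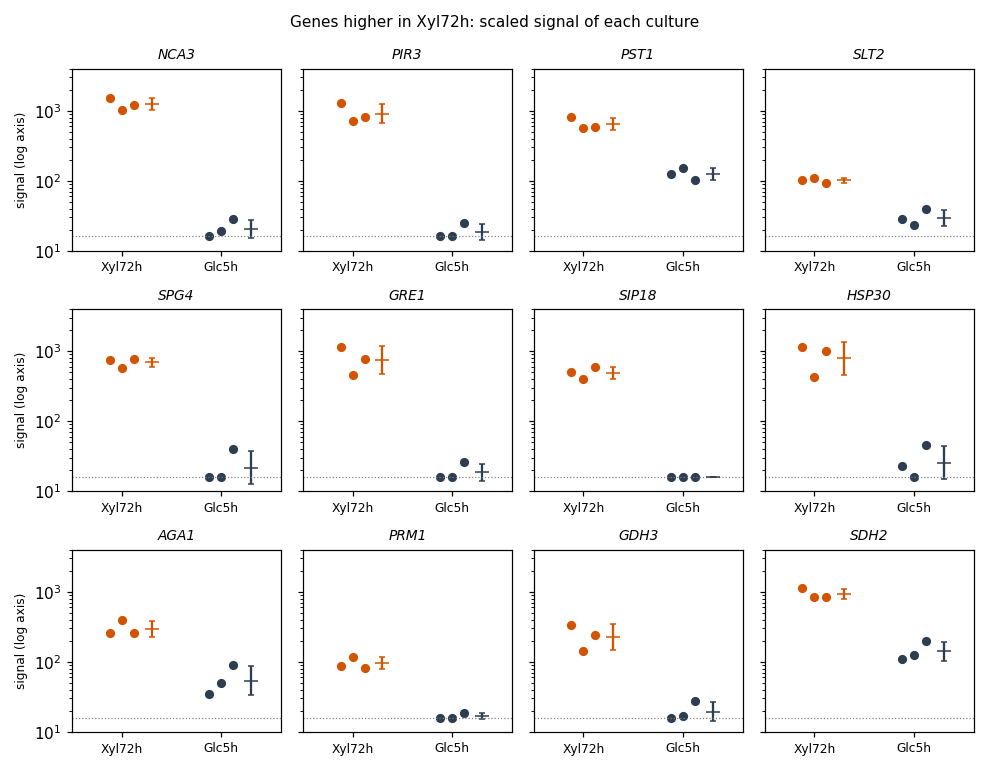
Scaled signal (log axis) of each of the 3 cultures of Xyl72h (left) and Glc5h (right) for 12 genes that were higher in Xyl72h, with the mean and SD on the log2 scale beside the points; the dotted line is the floor of 16. For each of the 12 all Xyl72h cultures lie above all Glc5h cultures, and for SIP18 each Glc5h culture is at the floor.

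Of 38 replication and repair genes 12 fell and 1 rose (7 lower without Xyl72h culture 0, up to 17 with a culture left out, 3 with the reference gene scaling), and of 39 mitotic genes 10 fell and none rose (5 without Xyl72h culture 0, 6 without Xyl72h culture 2, up to 14, and 3 with the reference gene scaling). Most genes of both lists, 25 and 29, were not called, and 34.2% and 25.6% were, against 27.9% of all genes. The median signal of the mitotic list was 16.0, the floor, in each Xyl72h culture, so many of its differences are minima. POL30, the sliding clamp PCNA, had 17.5, 32.8 and 21.0 in Xyl72h and 141, 84.8 and 45.1 in Glc5h (-1.83), and RFA1, of the single-strand binding protein, fell by 1.31. PCL1, a G1 cyclin, had 16.0, 16.5 and 16.0 in Xyl72h and 88.0, 52.9 and 39.7 in Glc5h, at least 3.52-fold lower, with the Xyl72h cultures at or just above the floor. The tubulin genes TUB1 and TUB2 fell by 1.52 and 1.34. TUB1 had 162, 137 and 130 in Xyl72h and 401, 333 and 506 in Glc5h. CLN3, the cyclin that starts the cycle, was not called (0.07, adjusted p = 0.974). The histone list had 8 tested genes, among them HIR2, HIR3, HPC2 and ASF1, which act on histone genes or histones and do not encode histones. Of the 8, 3 fell: the linker histone gene HHO1 by 1.56, HTZ1 by 0.96 and HIR2 by 0.72. HTB2 had 63.9, 87.4 and 61.2 in Xyl72h and 261, 335 and 73.2 in Glc5h with no call. HTB1 was not called either (-0.84). The lower count of this list was 1 without any culture but Glc5h culture 2.

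Of 43 proteasome and ubiquitin genes 21 fell and 2 rose, and the falls were small, from -0.55 to -1.34 (10 without Xyl72h culture 0, 11 without Xyl72h culture 2, 12 without Glc5h culture 0, and 4 with the reference gene scaling). PRE9, a core subunit, had 56.9, 67.3 and 63.9 in Xyl72h and 207, 133 and 145 in Glc5h (-1.34). The gene of the activator of proteasome genes, RPN4, was 1 of the 2 higher, with 103, 75.8 and 90.1 in Xyl72h and 62.0, 51.9 and 63.9 in Glc5h (0.59), and UBC5 was the other (1.36). The higher count was 1 without Glc5h culture 0, Glc5h culture 1, Xyl72h culture 0 or Xyl72h culture 2. Among 29 genes of the vacuolar list 16 fell (11 to 15 lower with a culture left out, 5 with the reference gene scaling). Of these, 13 were of the vacuolar ATPase, its assembly or IPP1, an inorganic pyrophosphatase that is not itself vacuolar. VMA8 had 18.0, 34.1 and 20.7 in Xyl72h and 121, 84.3 and 74.2 in Glc5h (-1.97). AMS1 and ATH1, for mannosides and trehalose, were higher by 2.14 and 1.72. Of 19 autophagy genes 4 rose, and for 3 of them every Glc5h culture was at the floor: ATG39 had 60.7, 63.5 and 90.0 in Xyl72h and 16.0 in each Glc5h culture, at least 4.39-fold higher. ATG8 was not called (0.83, adjusted p = 0.054). Without Glc5h culture 0 or Xyl72h culture 2 the autophagy count was 2. The autophagy genes called were 21.1% of the list, against 27.9% of all genes.

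Export and ion transport gave small lists with higher calls. Of 23 multidrug and weak acid genes 6 rose, PDR12 for export of weak acids most, with 642, 308 and 416 in Xyl72h and 51.9, 68.6 and 38.5 in Glc5h (3.08, adjusted p = 0.000776). PDR15, PDR10, FLR1 and SSU1 were higher by 1.20 to 1.51, and PDR5 was not called (-0.07). The 1 lower gene was PDR16, and 30.4% of the list was called, near the 27.9% of all genes. The lower count was 0 without Glc5h culture 1 or any Xyl72h culture and with the reference gene scaling, 4 without Glc5h culture 2 and 3 with the replicate block. Of 19 ion transport genes 5 rose and none fell (26.3% called, against 27.9% of all genes). Among the 5 were HAL1 and SIS2, which take part in salt tolerance. Among oxygen and haem genes 6 of 30 were higher and 4 lower, with 3 higher without Glc5h culture 0 and 1 or 2 lower where a Xyl72h culture was left out, and 9 higher and none lower with the reference gene scaling. HEM1, the first step of haem synthesis, had 315, 210 and 189 in Xyl72h and 84.9, 79.8 and 91.1 in Glc5h (1.45), while TIR3, a wall protein of low oxygen, fell by 2.18. PAU3 and PAU7, higher by 1.67 and 1.58, belong to a family of near-identical genes and cannot be counted as separate.

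In central carbon metabolism, which is given briefly, of 39 respiratory chain and ATP synthase genes 15 rose and none fell, with a median of 0.76 (7 without Xyl72h culture 0 or 2, 9 without Glc5h culture 1 or Xyl72h culture 1, up to 17 with a culture left out, 25 with the fermentation as a replicate block, 27 with the reference gene scaling). SDH2, of succinate dehydrogenase, had 1138, 834 and 849 in Xyl72h and 110, 126 and 200 in Glc5h (2.73, adjusted p = 0.000988), and the other subunits SDH1, SDH4 and SDH3 were higher by 2.59, 1.53 and 1.29. COX12 was not called (0.47, adjusted p = 0.335). Of 21 genes of the tricarboxylic acid and glyoxylate cycle list 7 rose. Among them was PCK1 of gluconeogenesis (2.42), while FBP1 of the same pathway was not called. MLS1, malate synthase, was at least 15-fold higher, with 285, 228 and 214 in Xyl72h and 16.0 in each Glc5h culture. Of 20 genes of the glycolysis list 2 rose, HXK1 and GLK1, and 1 fell, PDC5 for pyruvate decarboxylase, which acts after glycolysis. In all 15% of the list was called, against 27.9% of all genes. The abundant PGK1 and TDH3 were not called (adjusted p = 0.802 and 0.827). The higher count was 1 without Glc5h culture 0, Xyl72h culture 0 or Xyl72h culture 2. The median of -0.25 for glycolysis was 0.24 with the reference gene scaling.

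**Figure D5:**
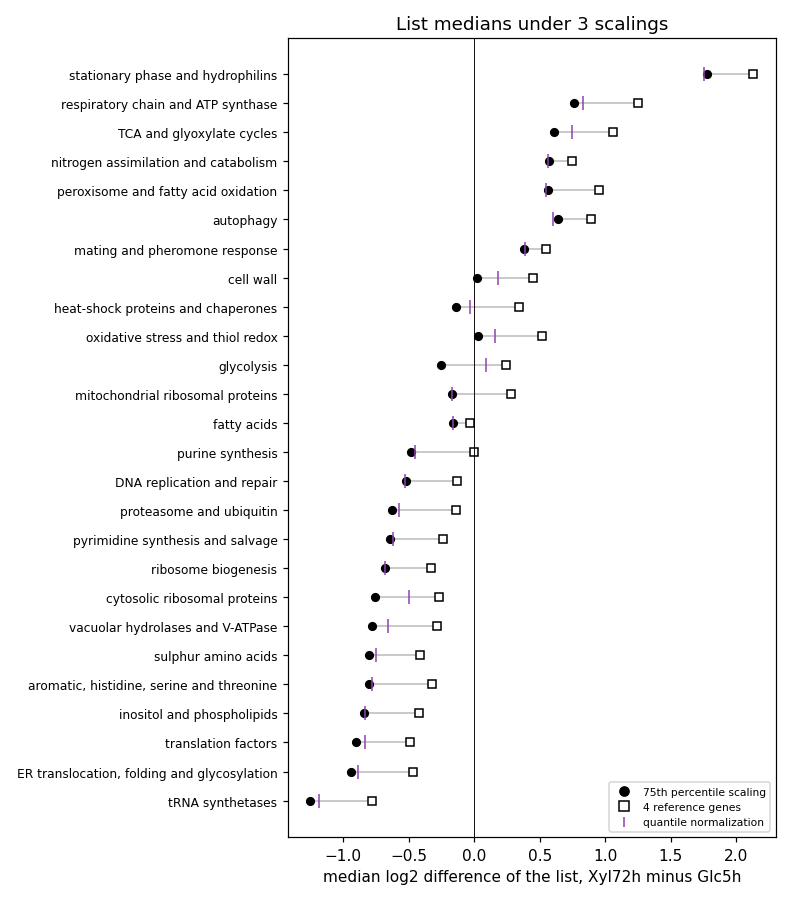
Median log2 difference (Xyl72h minus Glc5h) of 26 gene lists under 3 scalings: the upper quartile as reported, 4 reference genes, and quantile normalization. With the reference genes 3 medians that are negative as reported lie above 0 and that of purine synthesis is 0.00.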

How the data were processed

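RNA of each culture was hybridised to the S98 array, and the authors deposited 1 signal intensity per probe set and array on a linear scale. The study's methods describe log2 values from RMA, whereas the deposited signals have a trimmed mean of 50 on each array (2% trimmed at each end). After 60 control probe sets were left out of 9335, each array was scaled to a 75th percentile of 51.08, a floor of 16 replaced the 52.3% of values that were lower, and signals were put on the log2 scale. The 3398 probe sets at the floor on every array were not tested. The remaining 5877 were fitted with limma 3.58.1 in R 4.3.3 (statmod 1.5.0) over 9 cultures of 3 groups, without a block, and adjusted by Benjamini-Hochberg. The script was tested on simulated data. Figures and tables used Python 3.11.15, numpy 2.4.6, pandas 2.3.3 and matplotlib 3.10.9. Cultures were separate fermentations, whose number limits the precision. An exact permutation test of 3 against 3 cannot go below 0.1.

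Of 9275 probe sets 6504 had 1 gene name, 328 several and 2443 were not listed; 138 called ones are unnamed. A gene with several probe sets was represented by its plain one, then by the one with the highest mean signal. Same-numbered cultures deviated together (correlations 0.11, 0.28 and 0.20 across probe sets), so the numbers were taken as pairs in the alternative with a block. The 43 gene lists were chosen with earlier results of these data known, and 7 further lists and the isozyme pairs after their values were seen. Lists can share genes, such as URA7, SEC13 and DUR3, so their counts are not independent. Named were the 12 largest differences and 5 largest bounds in each direction, and in each list up to 5 called and 2 uncalled members; further genes were named for their role after their values were seen. A planned search for promoter motifs was not run.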

Additional observations from a re-analysis of the deposited data

How the results depend on the processing

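Scaled on the reference genes, 1153 probe sets were higher and 331 lower in Xyl72h, so 77.7% of the calls were higher, against 45.5% as reported; the cause was not tested. Without a filter, with the probe sets at the floor on every array included, 993 were called (453 higher, 540 lower). With only probe sets of a mean signal of 64 or more, 751 were called (332 higher, 419 lower). The cause of either change was not tested. Leaving out each culture in turn gave 944 to 1725 calls, 440 to 689 higher and 495 to 1036 lower, and a share higher of 39.9 to 48.9%. The totals were 944 without Xyl72h culture 0 and 983 without Xyl72h culture 2, and 440 were higher without Glc5h culture 0. With the fermentation number as a replicate block 1800 were called (832 higher, 968 lower), 1425 of them shared with the 1508. The other scalings, floors, pseudocount, single hybridisation and variance settings kept all 3 counts within 1.5 times. Of 233 genes named, 200 were called, and none of these changed sign under the alternatives that fitted it, while 16 of the 33 not called did under at least 1. With a mean signal of 64 or more 181 of the 233 could be fitted. Between 2 and 42 genes lost their call under each of the 19 alternatives. Signals near the floor, with 52.3% of values under it, limit what can be seen of weak transcripts.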

Other observations

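Gene lists put together after the values were seen are given as descriptions. Of 45 genes for vesicle coats and Golgi traffic 16 were lower in Xyl72h and none higher, with a median of -0.78 (11 to 20 lower with a culture left out). ERP2 and EMP24, of the p24 family of cargo receptors, fell by 2.40 and 1.74, and RET3, a subunit of the COPI coat, fell by 2.01. Of 18 genes for GPI anchors 5 fell (27.8% called, against 27.9% of all genes). MCD4, PER1 and GWT1 fell by over 4-fold, and 2 genes of the list were lower without Glc5h culture 0, Xyl72h culture 0 or Xyl72h culture 2. Of 39 actin and polarity genes 14 fell, TPM1 for tropomyosin most (-2.10), with 8 without Glc5h culture 0, Xyl72h culture 0 or Xyl72h culture 2. Of 14 genes of the cytosolic chaperonin and its partner prefoldin, which fold tubulin and actin, 10 fell, with a median of -1.01, 5 without Xyl72h culture 0 and 6 without Xyl72h culture 2. With the reference gene scaling fewer were lower: 9 coat and Golgi genes, 2 for GPI anchors, 4 for actin and polarity and 5 for chaperonin and prefoldin. In that scaling 1 coat and Golgi gene and 2 GPI anchor genes were higher.

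Among 48 genes of the nuclear pore and its carriers 15 fell and 1, GLE1, rose. The rise was lost without any culture but Glc5h culture 2 and with the reference gene scaling, where 8 were lower. SRM1, the exchange factor of the Ran GTPase, fell by 2.18. Of 15 polyamine genes 5 fell and 1 rose. The lower count was 3 without any 1 of the Xyl72h cultures, the higher count was 0 without any culture but Xyl72h culture 0, and with the reference gene scaling 4 were higher and 3 lower. Besides SPE3, DYS1 and LIA1, which make hypusine from spermidine, fell by 1.75 and 1.43. In 34 pairs of isozymes chosen after their values were seen, 7 had a called rise in 1 partner and a called fall in the other, 16 had 1 call, 5 had calls in the same direction and 6 had none. The difference between partners was not tested. OYE3 was higher by 3.18 and OYE2 lower (-1.16), and TKL2 and TKL1, for transketolase, stood at 4.17 and -0.65. Near-identical copies can share signal on the array.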
